A study of Homo sapiens with 27 samples.

Results

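The genes described are 8 long protein-coding genes that are active in most adherent cells: LPP, EXT1, FNDC3B, PTPRK, SMYD3, RAD51B, PRKCA and TNS3. They were chosen by name, as examples of long genes with broad transcription, out of 19970 protein-coding genes on chromosomes 1 to 22 and X, of which 1396 span at least 200 kb. Transcription was not measured in these libraries, so the activity of the genes in these cells is taken from general knowledge and was not checked. The measure is O6-MeG-seq: an antibody pulls down DNA fragments with the methylated base, and its position and strand are read from where a polymerase stops on it. Each of the 27 libraries is a list of distinct marked positions. Only positions at G with a score of at least 30 were counted here (G sites).

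Derivatives of the glioblastoma line LN-229 were used, 1 that carries transfected MGMT, a repair gene, and its transfection control, called WT. Both lines received 1 mM temozolomide (TMZ), a methylating drug, or 1% DMSO as solvent, either 1 time (1x) or 3 times at intervals of 4 h (3x), and were lysed for DNA 24 h after exposure began. With 3 biological replicates each, per the labels, this gave 12 TMZ and 12 solvent libraries. In 3 further libraries, DNA was exposed to 1 mM TMZ after isolation (naked DNA); replicate 1 came from non-transfected WT cells, replicate 2 from the WT line and replicate 3 from the MGMT line. The labels do not say whether the MGMT line is 1 clone.

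TMZ methylates guanine at several positions, and O6-methylguanine is the lesion that the protein MGMT reverses by taking up the methyl group. Long genes are mostly intron, and an RNA polymerase needs a long time to pass through them. A transcribed gene has a template strand, which the polymerase reads, and a coding strand; transcription-coupled repair is known to clear some lesions from the template strand first. A lesion removed in that way leaves more marks on the coding strand. Strand asymmetry is therefore given throughout as the log2 ratio of G sites on the coding strand to those on the template strand, and density as the G sites of a gene per 1000000 G sites of the library (SPM).

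The 8 genes lie on GRCh38 as follows. LPP, a LIM-domain protein of cell adhesions, spans chr3:188153021-188890671 on the plus strand, and FNDC3B, a membrane protein with fibronectin type III repeats, spans chr3:172039578-172401669 on the plus strand. TNS3, a tensin that links integrins to the actin skeleton, spans chr7:47275154-47582586 on the minus strand, and PTPRK, a receptor tyrosine phosphatase of cell contacts, spans chr6:127968785-128520599 on the minus strand. PRKCA, the signalling kinase protein kinase C alpha, spans chr17:66302613-66810743 on the plus strand. EXT1, a glycosyltransferase that builds heparan sulphate chains, spans chr8:117794490-118111826 and was read as a minus-strand gene from general knowledge, since the promoter table used for the other 7 did not give its strand. SMYD3, a lysine methyltransferase, spans chr1:245749347-246507279 on the minus strand, and RAD51B, a protein of homologous recombination, spans chr14:67819779-68683096 on the plus strand. No other protein-coding gene overlaps them.

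Libraries differed in depth. G sites numbered 170288 to 826017 in solvent libraries, 742216 to 5631616 under TMZ and 5268792 to 9079809 in naked DNA, and G made up 18.96% to 43.5%, 32.5% to 64.1% and 67.8% to 70.9% of marked sites in these groups. Between 8.70% and 50.8% of a library's G sites were also in another library, and the highest shares, 50.8% and 49.3%, were those of WT and MGMT solvent 1x replicate 1. These solvent libraries share sites with TMZ-treated DNA. WT solvent 1x replicate 1 had 34.6% of its G sites in common with naked DNA replicate 1 and 13.1% with WT TMZ 1x replicate 1. MGMT solvent 1x replicate 1 had 31.6% in common with naked DNA replicate 1 and 13.7% with MGMT TMZ 1x replicate 1. WT solvent 3x replicate 1 came next among solvent libraries, with a share of 30.2%. It had 9.36% of its G sites in common with WT TMZ 3x replicate 1 and 8.58% with MGMT TMZ 3x replicate 1. It was kept in the fits below that leave out the 1x solvent libraries named here. Among TMZ libraries MGMT TMZ 1x replicate 1 had the highest share, 24.6%. It had 7.22% of its G sites in common with MGMT solvent 1x replicate 1. With naked DNA replicate 1, from WT cells, it shared 15.6 times as many sites at other bases as the median pair, for their sizes. This TMZ library was kept in the main fits. All these solvent libraries are part of the solvent ranges below. By shared sites at bases other than G on chromosomes 1 to 22, the libraries fell into 5 sets, which were used as batches. Libraries were joined where a pair shared, for their sizes, more than 1.6 times as many such sites as the median pair. These sets were inferred from the sites and are not taken from the labels. No set held both naked DNA and 3x TMZ libraries, so that contrast and the set cannot be told apart.

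The start of a gene shows what a marked site is. The windows below, from 250 bases before to 50 bases after the RefSeq start (GRCh38.p14), belong to the 3 genes on which the results turn most. They are written along the coding strand, 5′ to 3′; a capital G is a marked G of the coding strand, and a capital C lies opposite a marked G of the template strand, in any of the 27 libraries.
SMYD3 (chr1:246507230-246507529, minus strand): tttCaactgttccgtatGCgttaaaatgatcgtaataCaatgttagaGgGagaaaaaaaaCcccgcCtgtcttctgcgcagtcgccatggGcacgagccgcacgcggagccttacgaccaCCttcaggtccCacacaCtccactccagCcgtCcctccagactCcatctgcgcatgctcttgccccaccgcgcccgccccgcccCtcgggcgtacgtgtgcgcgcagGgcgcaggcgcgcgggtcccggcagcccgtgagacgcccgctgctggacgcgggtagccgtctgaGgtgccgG
LPP (chr3:188152771-188153070, plus strand): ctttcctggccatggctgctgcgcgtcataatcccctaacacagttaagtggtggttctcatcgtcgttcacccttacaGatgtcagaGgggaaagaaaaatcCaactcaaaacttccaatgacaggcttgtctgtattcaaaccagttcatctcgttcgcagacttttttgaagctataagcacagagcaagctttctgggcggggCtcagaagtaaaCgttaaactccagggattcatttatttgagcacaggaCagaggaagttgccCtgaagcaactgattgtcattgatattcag
TNS3 (chr7:47582537-47582836, minus strand): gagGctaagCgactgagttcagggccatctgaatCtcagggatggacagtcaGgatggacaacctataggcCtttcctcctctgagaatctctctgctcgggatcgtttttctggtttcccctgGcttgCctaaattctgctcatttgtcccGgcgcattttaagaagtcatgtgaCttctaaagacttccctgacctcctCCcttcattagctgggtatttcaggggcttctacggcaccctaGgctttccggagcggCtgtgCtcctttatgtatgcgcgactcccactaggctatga
In the SMYD3 window 7 G of the coding strand and 13 of the template strand were marked, by 11 marks in naked DNA, 10 under TMZ and 0 under solvent. The LPP window held 2 and 5 marked positions and the TNS3 window 5 and 9, and in TNS3 12 of the marks were from TMZ libraries, 2 from naked DNA and 1 from solvent. Over the windows at the start of 6 of the genes, FNDC3B, PTPRK and PRKCA included, 76 G were marked, 28 on the coding strand, which has 515 G there, and 48 on the template strand, which has 600. The base before a marked G was A or G in 53 of the 76 (69.7%), against 52.6% of the 1112 G of these windows whose neighbour lies inside them. Each of the 306 marked bases at any letter in the genes' promoter windows was equal to the base in the RefSeq table. Such windows hold few marks, so the comparisons that follow were made over whole genes and over 50 kb windows.

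In naked DNA, which was treated outside cells, the 8 genes differed widely in G sites per length. TNS3 had 662 ± 4.21 SPM per Mb (SD, n = 3), a level above 97.8% of the genes of at least 200 kb. SMYD3 had 464 ± 69.4 and EXT1 453 ± 8.73, followed by PRKCA with 410 ± 7.89. SMYD3, with its wide spread, did not differ from EXT1 or PRKCA beyond it, and all 3 lay below TNS3. The naked DNA libraries came from different cells, so the SD also holds any difference between the lines. FNDC3B had 375 ± 26.1, LPP 363 ± 42.8 and RAD51B 354 ± 7.44, which did not differ beyond their spread, around the median of 328 for genes of at least 200 kb. PTPRK was lowest with 161 ± 2.51, above only 4.08% of such genes. In cells after 3x TMZ, TNS3 had 647 and PTPRK 174 SPM per Mb, and the order changed only in LPP and RAD51B (364 and 368). Under solvent SMYD3 (531) and TNS3 (517) were close together.

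Naked DNA also showed more G sites on the coding strand than on the template strand in all 8 genes. In SMYD3 the replicates held 1652, 866 and 1274 coding-strand sites against 1396, 759 and 1184 on the template strand, and in TNS3 1064, 568 and 685 against 795, 503 and 527. Every replicate of both genes was thus higher on the coding strand. The log2 asymmetry was highest in FNDC3B (0.35 ± 0.05, SD, n = 3), TNS3 (0.32 ± 0.13) and PTPRK (0.31 ± 0.13). It was 0.23 ± 0.16 in EXT1, 0.19 ± 0.06 in LPP, 0.18 ± 0.07 in SMYD3, 0.16 ± 0.15 in PRKCA and 0.11 ± 0.09 in RAD51B. Neighbours in this order did not differ beyond their spread, which again holds any difference between the lines. A value above 0 was the rule for long genes: it was seen in 1058 of 1157 oriented genes of at least 200 kb (91.4%), with a median of 0.16 against 0.21 for the 8. The share of G on each strand of the genes was not measured here, and its part in these values was not tested.

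**Figure D1:**
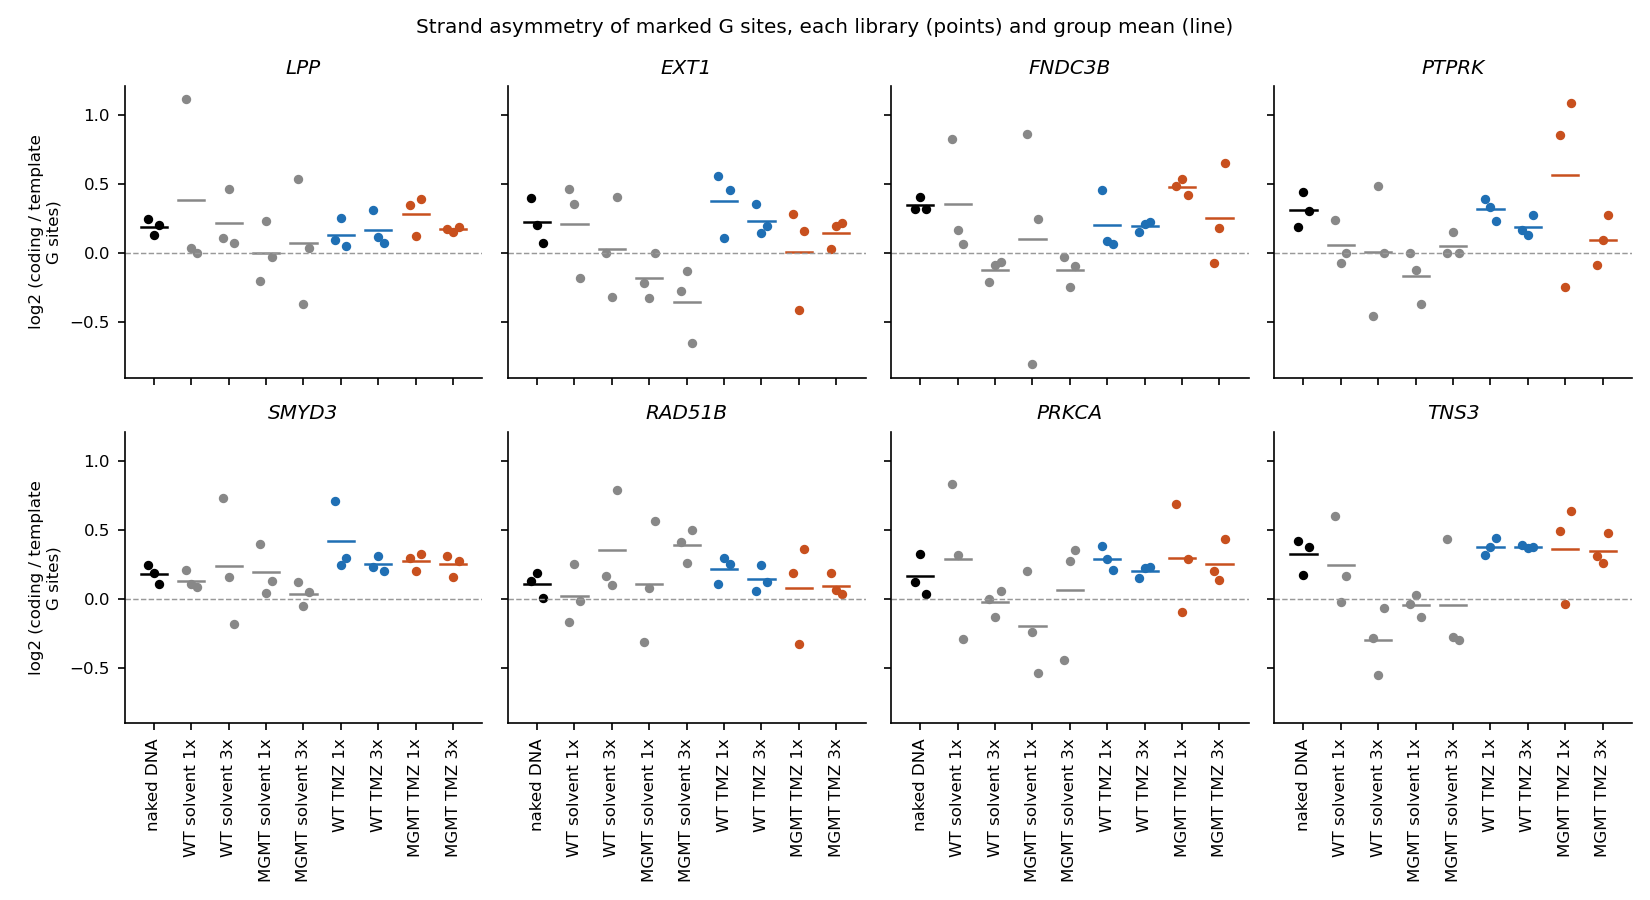
Strand asymmetry (log2 of coding-strand over template-strand G sites, y axis) of each of the 8 genes by group (x axis), with 1 point per library and a bar for the mean of 3 replicates. In TNS3 the 12 solvent libraries run from -0.55 to 0.60 and the 6 libraries of 3x TMZ from 0.26 to 0.48; in PTPRK the widest scatter is under 1x TMZ, from -0.25 to 1.08.

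The main question was whether marks in cells were shifted towards the coding strand beyond what naked DNA showed. After 3x TMZ they were not detectably so in any of the 8 genes. In TNS3 the naked DNA values were 0.18, 0.38 and 0.42 and the 6 libraries of 3x TMZ ran from 0.26 over a median of 0.37 to 0.48. In SMYD3 naked DNA ran from 0.11 over 0.19 to 0.24 and 3x TMZ from 0.16 over 0.25 to 0.31, and in PTPRK from 0.19 over 0.31 to 0.45 and from -0.08 over 0.15 to 0.28. In each of the 8 genes the groups overlapped. The fitted difference was between -0.14 in PTPRK (SE 0.084, 95% interval -0.31 to 0.02) and 0.07 in PRKCA (SE 0.059, -0.05 to 0.18).

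FNDC3B (-0.12), EXT1 (-0.07) and LPP (-0.04) had negative differences, and SMYD3 (0.06), RAD51B (0.01) and TNS3 (0.01) positive ones. These directions were not all stable: leaving out 1 replicate turned the sign of EXT1 (0.05 without replicate 1), PRKCA and RAD51B (-0.02 and -0.01 without replicate 3) and TNS3 (-0.01 without replicate 2, just below 0 without replicate 3). limma called 0 of the 8 at an adjusted p of 0.05 (Benjamini-Hochberg over all genes) and 0 had an unadjusted p below 0.05; over all 15848 genes tested 0% were called and 1349 had such an unadjusted p. The median of the 8 was -0.02, and that of all oriented genes 0.01. The highest upper bound among the intervals of the 8 was 0.18, in PRKCA.

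After 1x TMZ the same comparison with naked DNA gave 0 calls among the 8 as well (0.0126% of all genes). SMYD3 was nearest to one, with a difference of 0.13 (SE 0.058, limma adjusted p 0.746), and had values of 0.20 to 0.71 under 1x TMZ against 0.11 to 0.24 in naked DNA, which overlapped. PTPRK had the largest difference, 0.17, with the widest spread, from -0.25 to 1.08 in the 6 libraries on 65 to 263 sites each. The difference was above 0 in 6 of the 8 genes, with a median of 0.07 against 0.05 over all oriented genes. The contrasts of 3x and of 1x TMZ share the naked DNA libraries.

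Solvent libraries were taken as the background, though some of them share sites with TMZ-treated DNA. Against them the asymmetry under TMZ was higher in 1 of the 8 genes by the test. TNS3 ran from -0.55 over a median of -0.05 to 0.60 in the 12 solvent libraries, and from -0.04 over 0.37 to 0.63 in the 12 TMZ libraries. The ranges overlapped, but 11 of 12 TMZ libraries were above 0 and 4 of 12 solvent libraries were. The difference of 0.43 (SE 0.098, 95% interval 0.24 to 0.63) had a limma adjusted p of 0.0245; over all genes 0.145% were called, and among genes of at least 200 kb 0.716%. The solvent values rest on 33 to 125 TNS3 sites per library, the TMZ values on 146 to 1156. TNS3 stood at 0.32 ± 0.13 (SD, n = 3) in naked DNA, 0.37 ± 0.16 (n = 12) under TMZ and -0.03 ± 0.32 (n = 12) under solvent.

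The TNS3 call was lost in several other fits. It was uneven between sets 1, 2 and 3, which hold both treatments: the difference was 0.12, 0.22 and 0.62, and with the set as a block it was 0.43 with an adjusted p of 0.233 (limma). Without replicate 2 it was 0.38 (adjusted p 0.363) and without replicate 3 0.37 (0.516). With sites unshared between libraries it was 0.48 (0.0564). The highest solvent value, 0.60, is that of WT solvent 1x replicate 1, which shares sites with TMZ-treated libraries; without it and MGMT solvent 1x replicate 1 the difference was 0.45 (adjusted p 0.0388). Marks at bases other than G had a TNS3 asymmetry of -0.16 ± 0.23 (SD, n = 12) under solvent and 0.10 ± 0.19 under TMZ, so the asymmetry was also lower under solvent at those bases.

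PTPRK (0.32), EXT1 (0.29), PRKCA (0.28), FNDC3B (0.27) and SMYD3 (0.15) had differences between TMZ and solvent in the same direction, with limma adjusted p from 0.231 in PRKCA to 0.410 in SMYD3. With TNS3 they make 6 of the 8 with an unadjusted p below 0.05, as had 1480 of 15848 genes and 275 of the 1396 genes of at least 200 kb. LPP had 0.05 and RAD51B -0.06. In EXT1 the solvent libraries ran from -0.65 over -0.16 to 0.47, with 3 of 12 above 0, and the TMZ libraries from -0.41 over 0.20 to 0.56, with 11 of 12 above 0. RAD51B went the other way, with a mean of 0.22 ± 0.31 (SD, n = 12) under solvent and 0.13 ± 0.18 under TMZ. The median of the 8 was 0.27, of 17 other long broadly transcribed genes that could be oriented 0.12 and of oriented genes of at least 200 kb 0.08. These medians describe lists chosen with results known and carry no test.

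Comparing MGMT with WT cells under TMZ, limma called the asymmetry of 0 of the 8 genes (0% of all genes, 795 unadjusted). The differences ran from -0.18 in EXT1 (SE 0.094) to 0.18 in FNDC3B (SE 0.097), 4 of 8 above 0. Between 3x and 1x TMZ 0 of 8 were called (0% of all genes); each of the 8 differences was below 0, from -0.31 in PTPRK (SE 0.115, adjusted p 0.740 by limma) to -0.01 in EXT1, with a median of -0.06 against -0.05 over all oriented genes. The interaction of line and treatment was called in 0 of 8 (0% of all genes, 491 unadjusted).

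**Figure D2:**
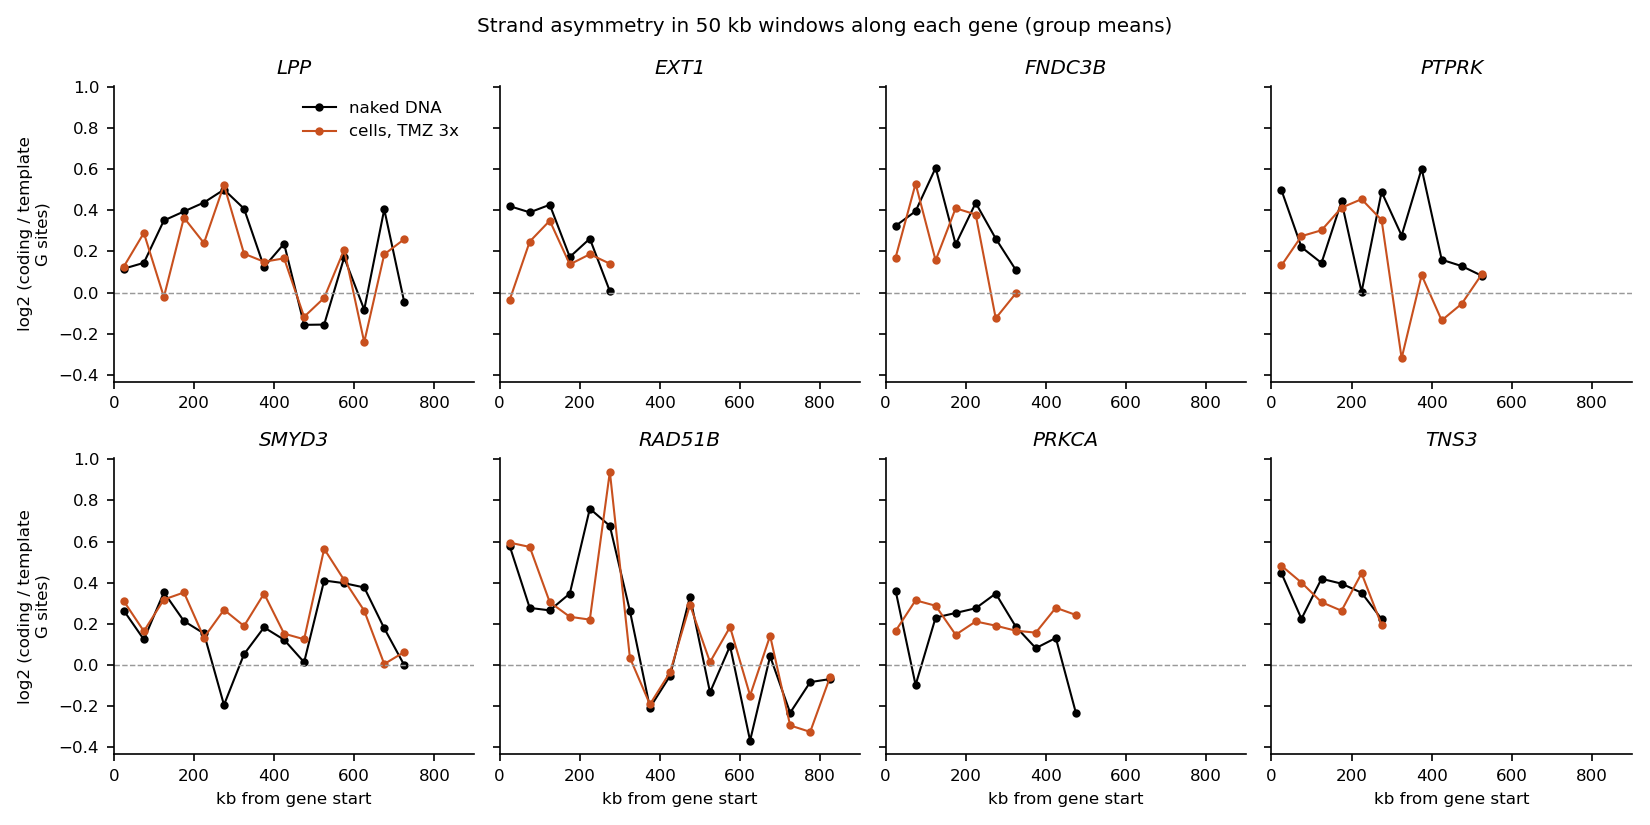
Strand asymmetry along each gene in 50 kb windows, with distance from the gene start in kb on the x axis and the log2 ratio of coding-strand to template-strand G sites on the y axis, for naked DNA (mean of 3 libraries) and 3x TMZ (mean of 6). RAD51B runs from 0.76 at its highest window to -0.37 at its lowest in naked DNA and from 0.94 to -0.33 after 3x TMZ.

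Along the genes the asymmetry varied from window to window. In naked DNA 72 of the genes' 87 windows of 50 kb lay above 0, and after 3x TMZ 71 of 87. TNS3 was above 0 in 6 of 6 windows in both, from 0.22 to 0.45 in naked DNA and from 0.19 to 0.48 after 3x TMZ. RAD51B varied most, between -0.37 and 0.76 in naked DNA and between -0.33 and 0.94 after 3x TMZ, with its high windows in the part nearest the start. PRKCA was above 0 in 8 of 10 windows in naked DNA and in 10 of 10 after 3x TMZ. Over the genes of at least 300 kb the median asymmetry in naked DNA was 0.25 in the first 50 kb and 0.14 between 250 and 300 kb, and for the 8 genes it was 0.39 and 0.30. After 3x TMZ it was 0.23 and 0.16 for the long genes, and 0.17 and 0.23 for the 8. The median of the differences of the 8 genes between 3x TMZ and naked DNA was -0.07 in the first 50 kb. Between 50 and 100 kb it was 0.14, with medians of 0.22 in naked DNA and 0.30 after 3x TMZ. From 100 to 300 kb it lay between -0.06 and -0.003 by window.

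None of the 87 windows was called between 3x TMZ and naked DNA for asymmetry (0.00957% of all windows; 9 of the 87 had an unadjusted limma p below 0.05, as had 1553 of all 20891) or for density (0% of all windows; 0 of 87 and 561 of all 20988 unadjusted). The lowest and the highest window of each gene are named as a description. For asymmetry the lowest windows by gene were those in PTPRK at 300 to 350 kb from the start (chr6:128170600-128220599, -0.60), in RAD51B at 200 to 250 kb (chr14:68019779-68069778, -0.54), in EXT1 at 0 to 50 kb (-0.46) and in FNDC3B at 100 to 150 kb (-0.45). LPP had its lowest window at 100 to 150 kb (-0.37), PRKCA at 0 to 50 kb (-0.20), SMYD3 at 650 to 700 kb (-0.17) and TNS3 at 150 to 200 kb (-0.13). The highest windows by gene were those in PRKCA at 450 to 500 kb (chr17:66752613-66802612, 0.48), SMYD3 at 250 to 300 kb (chr1:246207280-246257279, 0.46) and PTPRK at 200 to 250 kb (0.45). LPP from 700 kb to its end (0.31), RAD51B at 50 to 100 kb (0.30), FNDC3B at 150 to 200 kb and TNS3 at 50 to 100 kb (0.18 in both) and EXT1 at 250 to 300 kb (0.13) completed them. Such a PTPRK window held on average 57 G sites in a naked DNA library and 33.8 in a 3x TMZ library, so single windows are measured roughly.

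For density the windows of 3x TMZ against naked DNA ran from -0.30 in PRKCA at 0 to 50 kb to 0.33 in PTPRK at 0 to 50 kb. RAD51B (0.27) and EXT1 (0.23) were also highest at 0 to 50 kb, so 3 of the 8 genes had their highest window at the start and PRKCA its lowest. SMYD3 was highest at 350 to 400 kb (0.25), PRKCA at 200 to 250 kb and LPP at 200 to 250 kb (0.14 in both), FNDC3B at 150 to 200 kb (0.07) and TNS3 at 150 to 200 kb (0.05). The lowest windows of the other 7 lay between -0.15 in LPP (650 to 700 kb) and -0.08 in SMYD3 (650 to 700 kb) and in PTPRK (300 to 350 kb). Between them came RAD51B (-0.14, 250 to 300 kb), TNS3 (-0.14, 100 to 150 kb), EXT1 (-0.13, 250 to 300 kb) and FNDC3B (-0.10, 300 to 350 kb).

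**Figure D3:**
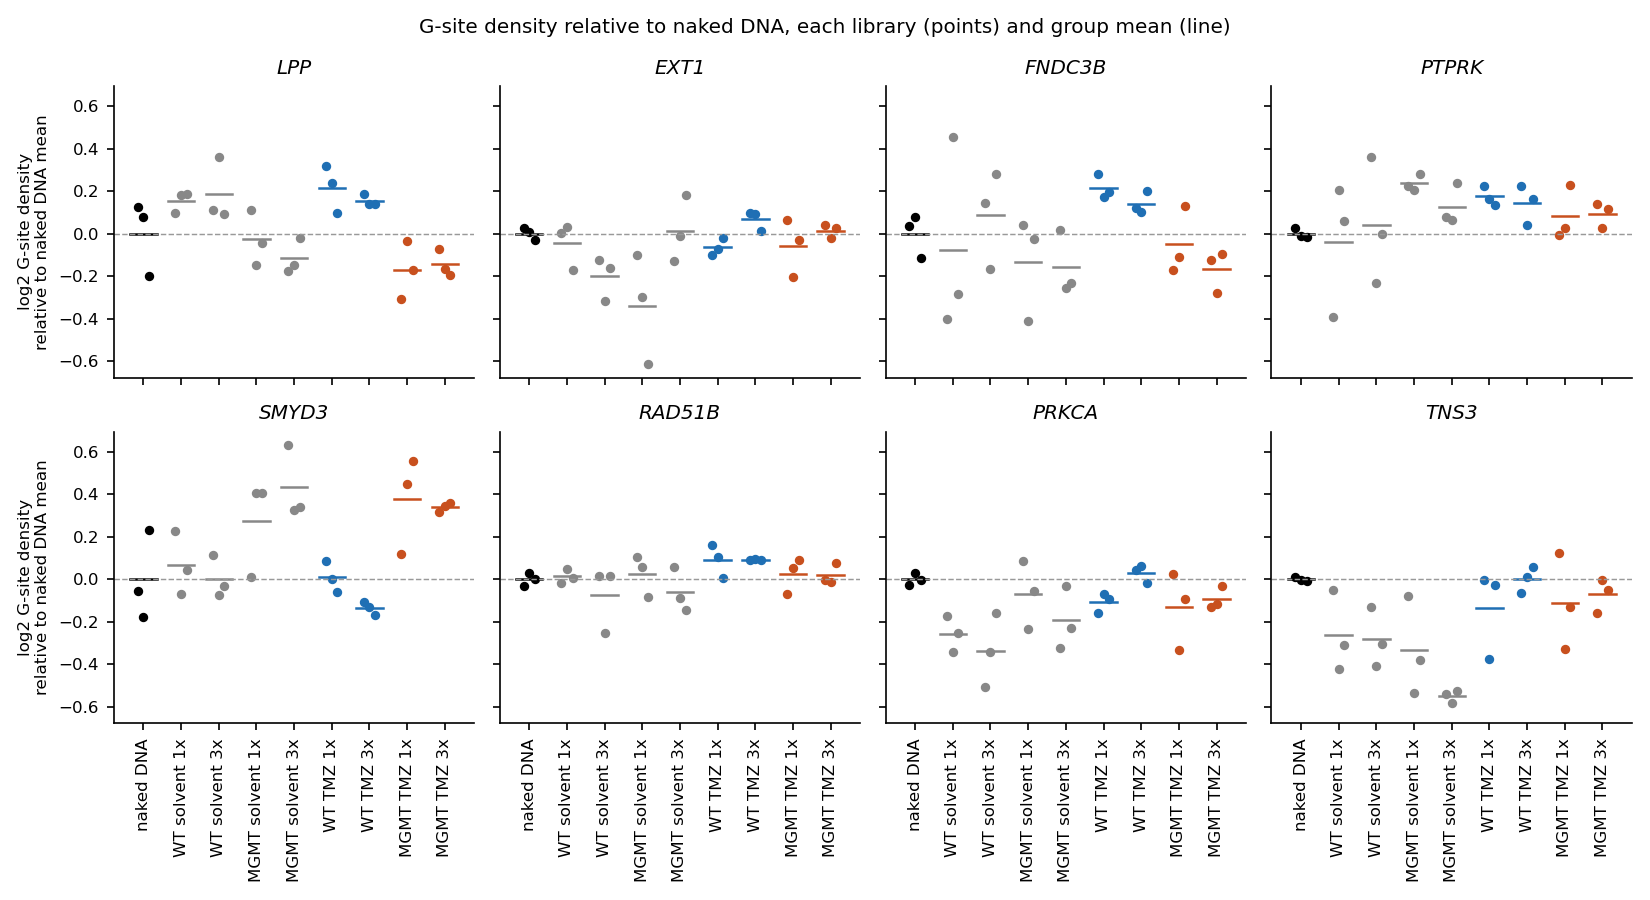
Density of G sites in each of the 8 genes by group (x axis), as log2 relative to the naked DNA mean (y axis). There is 1 point per library and a bar for the mean of 3 replicates. The SPM values given here are not on the scale of the axis. In SMYD3 the 6 MGMT libraries under TMZ (379 to 514 SPM) lie above the 6 WT libraries (310 to 370 SPM), and in LPP they lie below.

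Over whole genes the density after 3x TMZ, averaged over both lines, was within a narrow band around that of naked DNA. In RAD51B naked DNA had 299, 306 and 312 SPM and 3x TMZ from 303 over a median of 324 to 327. In PTPRK naked DNA had 87.7, 87.9 and 90.2 and 3x TMZ from 90.1 over 96.7 to 103. The groups overlapped in each of the 8 genes. The log2 difference ran from -0.04 in PRKCA to 0.10 in SMYD3 (SE 0.050, 95% interval 0.00 to 0.20) and PTPRK (SE 0.051). By line the band was wider. Relative to the naked DNA mean, group means ran from -0.17 to 0.34 in MGMT cells and from -0.14 to 0.15 in WT cells. Both lines count equally in the mean of cells, but naked DNA holds more libraries from WT cells than from the MGMT line.

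limma called 0 of 8 (0.13% of all genes, 0.017% higher and 0.113% lower, and 1.5% of genes of at least 200 kb; SMYD3 had an unadjusted p below 0.05, adjusted 0.756). Without replicate 3, and so without the naked DNA of the MGMT line, SMYD3 had 0.22 and an adjusted p of 0.0213 (limma, 207 of 17698 genes called), while without replicate 2 it had 0.01 and without replicate 1 0.07. After 1x TMZ 0 of 8 were called as well (0.418% of all genes, 0.198% higher and 0.22% lower, and 3.01% of genes of at least 200 kb). There SMYD3 had 0.20 (SE 0.061, adjusted p 0.102), TNS3 -0.13 (SE 0.061, 0.297) and PRKCA -0.11 (SE 0.053, 0.314). At bases other than G, TNS3 (-0.33, adjusted p 0.00156) and PRKCA (-0.23, 0.00817) were called by limma after 1x TMZ, where 7.9% of genes were.

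TMZ against solvent gave 1 call for density, TNS3 again. The 12 solvent libraries ran from 135 over a median of 154 to 194 SPM, and the 12 TMZ libraries from 156 over 198 to 221, while naked DNA had 202, 203 and 205. The ranges overlapped between 156 and 194. The difference was 0.31 on the log2 scale (SE 0.069, 95% interval 0.17 to 0.45, limma adjusted p 0.00283); 10.6% of all genes were called, 8.65% higher and 1.99% lower, and 19% of genes of at least 200 kb. Within sets 1, 2 and 3 it was 0.14, 0.18 and 0.40. The 2 highest solvent values, 194 and 192, are those of WT and MGMT solvent 1x replicate 1; without both the difference was 0.35 (limma adjusted p 0.000669).

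At bases other than G the same 12 against 12 libraries gave 0.21 in TNS3 (SE 0.047, limma adjusted p 0.000671), and EXT1, FNDC3B and PRKCA were called there too, at 0.17 each; 26% of genes were called at those bases. The TNS3 call at G was lost without replicate 2 (adjusted p 0.105) or 3 (0.0713), with sizes from a trimmed mean (0.18, adjusted p 0.0511) and relative to the 500 kb on either side (0.26, 0.0784; limma in each). PRKCA and EXT1 had 0.15 each at G (adjusted p 0.0831 and 0.126, limma), and LPP (-0.05) and SMYD3 (-0.04) were below 0. Of the genes' 87 windows 3 were called (7.96% of all windows): TNS3 at 0 to 50 kb (0.57, limma adjusted p 0.00456) and windows 14 and 17 of the 17 of RAD51B (0.50, adjusted p 0.0490, and 0.57, adjusted p 0.0202). All 6 windows of TNS3 were above 0 for density, from 0.13 to 0.57, and for asymmetry, from 0.25 to 0.71, with 0 windows of the 8 genes called for asymmetry (0% of all windows).

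The clearest differences were between the cell lines. Under TMZ the density of SMYD3 was higher in MGMT than in WT cells, and those of LPP and FNDC3B were lower. SMYD3 ran from 310 over a median of 329 to 370 SPM in the 6 WT libraries and from 379 over 446 to 514 in the 6 MGMT libraries, without overlap. LPP ran from 284 over 298 to 332 in WT and from 214 over 236 to 259 in MGMT libraries, also without overlap. FNDC3B ran from 145 over 154 to 164 and from 112 over 125 to 148, with a small overlap. How many of all genes, or of other long genes, had no overlap was not counted, so the lack of overlap is a description only.

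On the log2 scale SMYD3 was higher by 0.46 (SE 0.053, 95% interval 0.35 to 0.57, limma adjusted p 2.57e-07). LPP had a difference of -0.32 (SE 0.056, adjusted p 0.000164, limma) and FNDC3B of -0.28 (SE 0.072, adjusted p 0.0108, limma). The 3 calls stand against 6.53% of all genes, 4.07% higher and 2.46% lower, and 26.5% of genes of at least 200 kb. The other 5 genes had differences from -0.08 in PRKCA to -0.02 in TNS3. All 3 calls were lost relative to the 500 kb on either side of each gene, where SMYD3 had 0.03, LPP -0.04 and FNDC3B 0.04, and relative to naked DNA of the same line, with 0 of 17698 genes called in both. The FNDC3B call was also lost without replicate 1 (-0.26, adjusted p 0.0612) or 2 (-0.24, 0.145), with limma-trend (-0.29, 0.340) and with the set as a block (-0.28, 0.159; limma in each). In the comparison with naked DNA of the same line, the WT baseline included replicate 1, which came from non-transfected WT cells. LPP and FNDC3B both lie on chromosome 3.

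**Figure D4:**
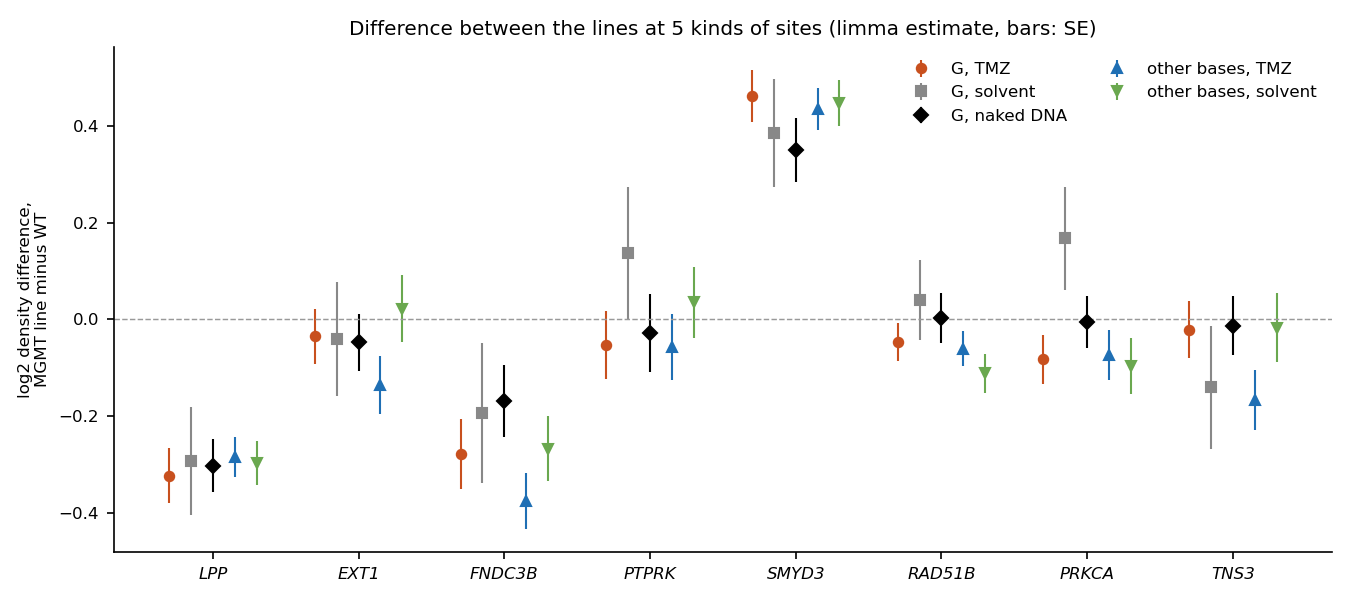
MGMT minus WT difference in density (log2) for each of the 8 genes at G and at other bases, under TMZ, under solvent and, at G, in naked DNA. Bars are 1 standard error. SMYD3 lies between 0.35 and 0.46 in all 5 and LPP between -0.32 and -0.28.

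Under solvent the differences between the lines had the same sign in these 3 genes, but none was called at G. Under solvent SMYD3 had 331 over 350 to 405 SPM in WT and 350 over 451 to 540 in MGMT libraries, and LPP 282 over 294 to 341 and 235 over 249 to 286. The LPP ranges overlapped between 282 and 286, and the SMYD3 ranges from 350 to 405, over most of the WT range. Both overlaps rest on MGMT solvent 1x replicate 1. The next lowest MGMT library had 436 in SMYD3, and the next highest 261 in LPP. MGMT solvent 1x replicate 1 shares sites with naked DNA replicate 1 from WT cells, and the part of this in the overlaps was not tested. At bases other than G it had 418 sites per 1000000 in SMYD3, against 261 to 368 in WT solvent libraries. In LPP it had 315 there, against 289 to 343. The differences of 0.38 in SMYD3 (SE 0.111, limma adjusted p 0.247), -0.29 in LPP (SE 0.111, 0.394) and -0.19 in FNDC3B (SE 0.145, 0.718) did not pass, and 0.0113% of all genes did. At bases other than G the 3 genes were called under solvent: SMYD3 at 0.45 (limma adjusted p 2.19e-10), LPP at -0.30 (1.50e-06) and FNDC3B at -0.27 (0.00421). Under TMZ they were called there as well, at 0.43, -0.28 and -0.37, with 9.11% of all genes called under solvent and 12.1% under TMZ.

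In naked DNA only 1 library came from the MGMT line, so its values are a description. SMYD3 had 336 and 308 SPM in the libraries from WT cells and 410 in the one from the MGMT line, and LPP had 290, 281 and 232. The library of the MGMT line was thus the highest in SMYD3 and the lowest in LPP. The difference from the WT libraries was 0.35 in SMYD3, -0.30 in LPP and -0.17 in FNDC3B. A limma fit in which this lone library is assumed to vary like the other groups called SMYD3 and LPP, and not FNDC3B, with 5.39% of all genes called; it cannot show how far naked DNA of the MGMT line varies.

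Set against the naked DNA of its own line, SMYD3 had 0.11, LPP -0.02 and FNDC3B -0.11 under TMZ, and 0 of the 8 genes were called by limma (0% of all genes, 484 unadjusted). For the MGMT line this baseline is the same 1 library, so the missing calls rest on it and do not show that the lines were alike. For WT cells the baseline holds naked DNA replicates 1 and 2. Replicate 1 came from non-transfected WT cells, so this baseline is only in part of the same line. The interaction of line and treatment was 0.08 in SMYD3, -0.03 in LPP and -0.08 in FNDC3B, with 0 of 8 called (0.00565% of all genes). PRKCA had the interaction farthest from 0, -0.25 (SE 0.117, 95% interval -0.49 to -0.01).

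**Figure D5:**
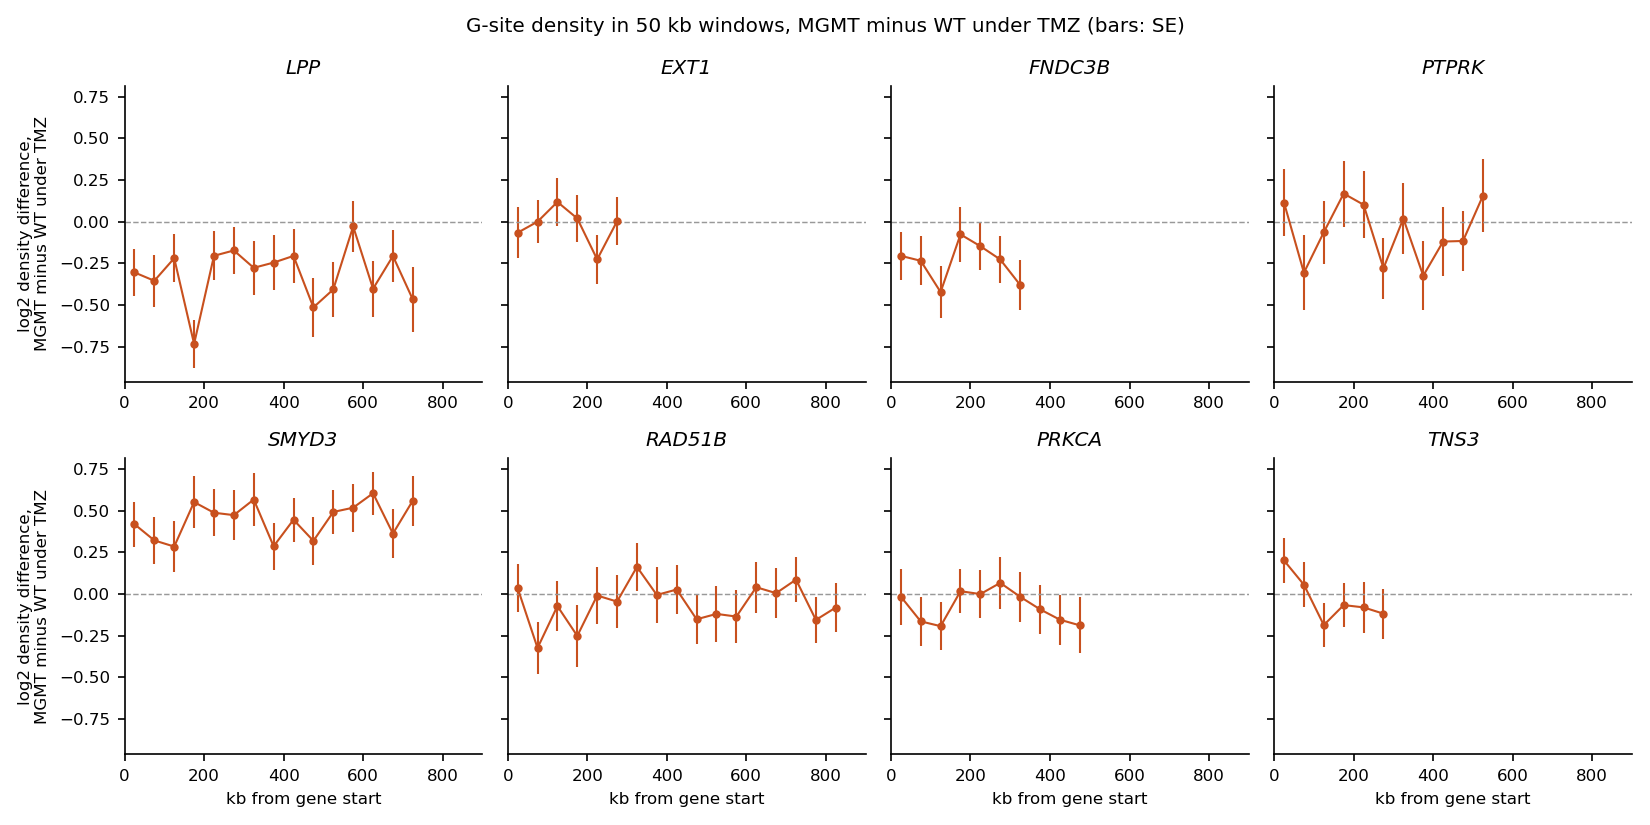
MGMT minus WT difference in density under TMZ (log2, y axis) in 50 kb windows along each gene, by distance from the gene start in kb (x axis). All 15 windows of SMYD3 lie above 0 and all 15 of LPP and 7 of FNDC3B below.

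By window, the direction was the same along each of these 3 genes, but most calls were in SMYD3. In SMYD3 15 of 15 windows were higher in MGMT cells, by 0.28 to 0.60, and 10 of them were called. In LPP 15 of 15 were lower, from -0.73 to -0.03, with 1 called, and in FNDC3B 7 of 7, from -0.42 to -0.08, with 0 called. The strongest LPP window lay at 150 to 200 kb from the start (chr3:188303021-188353020, -0.73, limma adjusted p 0.000775). In all, 11 of the 87 windows were called, against 7.31% of all windows. Within sets 1, 2 and 3 the difference was 0.03, 0.44 and 0.54 in SMYD3, -0.63, -0.27 and -0.30 in LPP and -0.45, -0.26 and -0.25 in FNDC3B. Set 1 holds only 1 library of each line under TMZ, so its values compare single libraries. In SMYD3 these libraries differed by 0.34 at bases other than G. RAD51B, the longest of the 8, had 6 of 17 windows above 0 and 0 called.

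Between 3x and 1x TMZ density was called in 0 of the 8 genes (0% of all genes). The differences ran from -0.12 in FNDC3B (SE 0.072) to 0.12 in TNS3 (SE 0.058, 95% interval 0.00 to 0.23, limma adjusted p 0.573). TNS3 had 182 to 212 SPM after 3x and 156 to 221 after 1x TMZ, which overlapped.

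Other groups of long genes were set beside the 8 by count. Of 20 other long broadly transcribed genes, 1 was higher and 2 were lower under TMZ than under solvent (median -0.02), of 9 giant genes of common fragile sites 1 was lower (median -0.11) and of 19 giant neuronal adhesion and synapse genes 11 were lower (median -0.16), by limma at an adjusted p of 0.05. The median of the 8 was 0.08. Over all genes 8.65% were higher and 1.99% lower, and among the 1396 genes of at least 200 kb 114 were higher and 151 lower (median -0.04). Between 3x TMZ and naked DNA, 3 neuronal genes and 1 fragile-site gene were lower and 0 of the 20 were called, with medians of -0.04, -0.05 and 0.08; 0.113% of all genes and 19 of the 1396 long genes were lower. In MGMT against WT cells under TMZ, 5 of the 20 were higher and 3 lower, 2 fragile-site genes were higher and 5 lower, and 5 neuronal genes were higher and 1 lower. Over all genes 4.07% were higher and 2.46% lower in this comparison, and among the 1396 genes of at least 200 kb 245 were higher and 125 lower.

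The mean density of the 8 genes relative to naked DNA ran from -0.10 in WT solvent 3x to 0.06 in WT TMZ 3x over the 8 groups of cells. Among 1388 other genes of at least 200 kb, TACC2 (Pearson r 0.995), RUNX1 (0.974) and RIMBP2 (0.969) had the group means most correlated with it. These were 8 groups that share the naked DNA baseline and differ in depth. The correlation ignores level and scale. Group means ran from -0.52 to 0.004 in TACC2, from -0.52 to 0.08 in RUNX1 and from -0.65 to -0.15 in RIMBP2, wider than in the mean of the 8 genes. In all 20 genes had an r above 0.9.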

How the data were processed

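O6-MeG-seq was run on 27 libraries. Per the submitters' processing notes, the tools were FastQC 0.11.9, Trimmomatic 0.38 and 0.39, cutadapt, Bowtie2 2.3.5.1, GATK 4.2.0.0, SAMtools 1.12 and bedtools 2.29.2, with GRCh38 as the build; their roles and any removal of duplicates are not given in the sources used here. The files deposited by the authors list distinct sites with strand, base and a score of 0 to 42, which lies in the range of a mapping quality and is not a read number. The plan was kept: G sites with a score of at least 30 on chromosomes 1 to 22 and X were counted per gene, strand and 50 kb window (a last window under 25 kb was left out), from the gene start.

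Gene bodies came from the RefSeq table of GRCh38.p14, and the strand of 15812 of 19970 genes from RefSeq promoter entries. Asymmetry, with 0.5 sites added to each strand, was fitted by limma 3.58.1 (R 4.3.3) with weights from site numbers (at least 20 sites in 3 libraries); genes without a known strand were tested with an arbitrary sign. Density was fitted by limma voom (at least 10 sites in 3 libraries), with the library's G sites as size. All 27 libraries in 9 groups shared 1 spread, and p-values were adjusted over all genes by Benjamini-Hochberg, with a threshold of 0.05. The script was tested on simulated data. Counts were made with Python 3.11.15.

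The members and lists were chosen with earlier results of these data known. All 8 genes, the windows with the highest and lowest difference between 3x TMZ and naked DNA, and the 3 genes with the most similar density pattern were to be named; windows called in the other comparisons were named after their values were seen. MGMT against WT under solvent, in naked DNA and at other bases was added after the values were seen. The alternatives were other score minimums, filters, sizes, weights, blocks and samples. The number of marked sites limits precision, and intervals cover the spread between libraries.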

Additional observations from a re-analysis of the deposited data

How the results depend on the processing

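Of the comparisons between groups, 161 results under an alternative kept their count of genes called within 1.5 times, 5 rose and 11 fell. Most of these comparisons had 0 calls in the main fit, and 0 against 0 was counted as kept. A fall from 3 calls to 2 was counted as kept too, so the tally does not show that the calls were stable. Of single gene values 248 kept direction and side of the threshold, 16 changed sign, 19 lost and 1 gained a call. Most of these values were uncalled in the main fit as well. Without a score minimum density was called in 1 of the 8 genes (TNS3; 747 of 18343 genes) for 1x TMZ against naked DNA and in 3 (EXT1, PRKCA, TNS3; 3162 of 18343) for TMZ against solvent, and asymmetry in 1 (PRKCA; 12 of 16486) for 1x TMZ against naked DNA. For TMZ against solvent density was called in 0 with trimmed mean sizes (1868 of 17698 genes) and relative to 500 kb flanks (360), and in 2 (PRKCA, TNS3; 2814) without the WT and MGMT solvent 1x replicate 1, which share most sites; asymmetry was called in 0 with unshared sites (3 of 15382 genes), with no weights (36 of 15848; TNS3 0.40, limma adjusted p 0.249) and with the set as a block (4). For MGMT against WT under TMZ density was called in 0 relative to 500 kb flanks and in 0 relative to naked DNA of the same line (0 of 17698 genes in both), and in 2 with limma-trend (188), with the set as a block (451) and with the replicate block within exposure number (810; FNDC3B, limma adjusted p 0.0512). Leaving out each replicate gave 0 to 1 calls for TMZ against solvent in either measure, 0 to 1 for density of 3x TMZ against naked DNA and 2 to 3 for density of MGMT against WT, where, in this order, 193 to 1642 (density), 0 to 31 (asymmetry), 2 to 207 and 274 to 853 of all genes were called. limma-trend called 0 of the 8 for density in the comparisons with naked DNA, of 3x with 1x TMZ and of the interaction, as voom did. The cause was not tested.

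Values that changed sign were, for density of 3x TMZ against naked DNA, EXT1 relative to flanks (-0.022), LPP with only the groups compared (-0.012) and with solvent subtracted (-0.0065), and PRKCA (0.0043) and TNS3 (0.053) with solvent subtracted. Leaving out each replicate gave -0.11 to 0.061 in FNDC3B, -0.086 to 0.053 in LPP and -0.048 to 0.014 in TNS3, and, with no change of sign, 0.012 to 0.22 in SMYD3, 0.074 to 0.15 in PTPRK, 0.043 to 0.079 in RAD51B, 0.029 to 0.040 in EXT1 and -0.045 to -0.020 in PRKCA. For MGMT against WT FNDC3B had 0.040 relative to flanks. For asymmetry of 3x TMZ against naked DNA EXT1 (0.0010) and RAD51B (-0.028) changed sign with solvent subtracted, and leaving out each replicate gave -0.19 to -0.071 in PTPRK, -0.21 to -0.075 in FNDC3B, -0.052 to -0.027 in LPP, 0.022 to 0.092 in SMYD3, -0.14 to 0.050 in EXT1, -0.022 to 0.17 in PRKCA, -0.010 to 0.027 in RAD51B and -0.015 to 0.069 in TNS3.

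Over all genes the counts moved more. Density of TMZ against solvent had 1882 calls, from 193 without replicate 2 to 3164 with no filter, and of MGMT against WT 1155, from 0 relative to flanks to 1942 with only the groups compared; 3x TMZ against naked DNA had 23 (0 to 207) and 1x TMZ 74 (0 to 747), and asymmetry of TMZ against solvent 23 (0 to 66). Deviations of same-numbered libraries had r above 0.1 in 6 of 12 pairs of lines and in 4 of 12 pairs of treatments. In the main fits libraries were not paired by number. The 1x pairs of replicates 1 and 2 had r from 0.17 to 0.34, however. The sets also mostly followed the number within an exposure number: 1x replicates 1, 2 and 3 fell in sets 1, 2 and 3. At 3x replicate 1 fell in set 2 and replicate 2 in set 3. At 3x replicate 3, however, the TMZ libraries fell in set 3 and the solvent libraries in set 4. The main fits thus leave out a grouping that these values show. With the replicate number alone as the replicate block, MGMT against WT had 3 of the 8 genes called and TMZ against solvent 1 in either measure, as without it. The replicate block within exposure number, which sets same-numbered libraries of 1 exposure number together, gave 2 for MGMT against WT. Depth limits asymmetry most in solvent libraries, which hold 11 to 384 G sites in a gene of the 8.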
